A study of Homo sapiens with 9 samples.

Results

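The response of a cell to broken DNA begins with 3 large kinases and a small set of chromatin proteins, and the mRNA levels of 10 of these genes were followed here in cells depleted of a long noncoding RNA. The 10 genes were ATM, ATR, PRKDC, CHEK1, CHEK2, TP53BP1, MDC1, H2AX, RNF8 and RNF168, chosen by symbol, and each had 1 row among the 60605 genes of the deposited table. All 10 were among the 21395 genes that averaged 0.1 FPKM or more (fragments per kilobase of exon, scaled to the library total) and were tested. The cells were TE13, an established line of human esophageal squamous cell carcinoma. They received a control siRNA, or siRNA.1 or siRNA.2 against PARylator (LINC00885), with 3 biological replicates each and no DNA-damaging agent named in the labels, and poly(A)+ RNA was sequenced.

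ATM responds mainly to double-strand breaks and ATR to single-stranded DNA at stalled forks, and each relays the signal to a smaller kinase, CHK2 or CHK1. DNA-PKcs, the product of PRKDC, instead acts where the Ku heterodimer holds broken ends for direct joining. Around a break, phosphorylated H2AX (γH2AX) binds MDC1, MDC1 recruits the ubiquitin ligase RNF8, RNF8 and then RNF168 ubiquitinate the chromatin, and 53BP1 (TP53BP1) binds the marks that result. These steps are controlled largely by phosphorylation and ubiquitination of existing proteins, which mRNA levels do not measure. The study followed the phosphorylated or focal forms of several of these proteins, and the comparison here is of the mRNA of the same pathway.

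The libraries held 15337917 to 22559998 counts assigned to genes. The 10 genes held from 275 counts, for RNF8, to 16415 counts, for PRKDC, in a library. LINC00885 had 6, 7 and 12 counts with control siRNA, 4, 5 and 2 with siRNA.1, and 2, 0 and 4 with siRNA.2. Its counts were lower than control in every library of both siRNAs, but neither difference passed the test (log2 fold change -1.21, adjusted p = 0.376, and -2.33, adjusted p = 0.0659, edgeR quasi-likelihood test with Benjamini-Hochberg adjustment over all genes tested), and with DESeq2 the second did (adjusted p = 0.0472). Counts this low did not allow the extent of knockdown to be measured. All 10 squamous epithelial markers examined were at 1 FPKM or more in every group. Their summed level was 794 to 818 FPKM in control, 560 to 595 for siRNA.1 and 573 to 590 for siRNA.2. The markers did not all move alike. SFN and KRT5 fell most in FPKM with both siRNAs, and KRT17, TP63, DSC3 and PKP1 were also lower with both. ITGB4 passed as lower with siRNA.2 alone. KRT6A and DSG3 were higher with both siRNAs, and KRT14 did not pass against control. Of 9 blood cell markers, 1 reached 1 FPKM in control and 3 with each siRNA, with summed levels of 5.2 to 5.97, 6.97 to 7.9 and 6.82 to 7.88 FPKM and MS4A1 at 0 throughout; LYZ, the lysozyme gene of myeloid cells, went from 0.317 FPKM in control to 2.79 and 3.08, and LAPTM5, the most abundant of the list in control, from 4.95 to 3 and 2.4. Of 6 fibroblast markers 1 reached that level (summed level 2.26 to 2.41, 1.5 to 1.63 and 1.44 to 1.74 FPKM), and of 4 endothelial markers none did (1.2 to 1.54, 0.63 to 0.89 and 0.42 to 0.55 FPKM). Mitochondrial genes took 7.46 to 7.66% of counts in control, 4.99 to 5.06% for siRNA.1 and 5.54 to 5.56% for siRNA.2. The part of these shifts in the results was not tested. In a bulk sample, fewer cells of a kind and less RNA per cell cannot be told apart.

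In control cells H2AX had the highest level of the 10 genes, at 67.1 ± 0.584 FPKM (SD, n = 3), followed by PRKDC at 47.4 ± 2.65. CHEK1 followed at 17.4 ± 0.704, TP53BP1 at 13.3 ± 0.435, MDC1 at 8.92 ± 0.59, CHEK2 at 7.67 ± 0.215 and RNF168 at 5.99 ± 0.222 FPKM. ATR, at 3.01 ± 0.194, overlapped RNF8, at 2.76 ± 0.133, and ATM was lowest at 1.51 ± 0.0173 FPKM. DNA-PKcs mRNA was thus far above that of ATM and ATR. The order depended on the length by which counts were divided: the deposited lengths, which sum all annotated exons, were 3.03 times the canonical transcript for ATM, 3.34 times for ATR and 2.44 times for CHEK2. Divided by the canonical transcript of GENCODE release 44, ATM stood at 4.58, ATR at 10.1 and CHEK2 at 18.7 FPKM, so that CHEK2 moved above TP53BP1 and ATM above RNF8. Comparisons between groups do not involve this length.

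With siRNA.1, 6 of the 10 genes passed the test, against 30.3% of all genes tested: RNF8 was higher (15% of all genes were), and PRKDC, TP53BP1, ATM, RNF168 and ATR were lower (15.2%). With siRNA.2, 4 of 10 passed, against 30.9% of all genes: RNF8 was higher (15.8%), and RNF168, TP53BP1 and CHEK2 were lower (15.1%). Among the 11156 genes averaging 100 counts or more, a class that holds all 10, the shares called were 49.2% and 50.3%. The counts of called genes were thus near the background of this data set. RNF8, TP53BP1 and RNF168 changed in the same direction with both siRNAs, and 21.2% of all genes tested did so. This share was not counted among genes averaging 100 counts or more, which were called more often. Both comparisons share the control libraries. In FPKM, libraries of the 2 groups did not overlap for 37.7% of all genes with siRNA.1 against control and 39.6% with siRNA.2. Between the siRNAs this held for 24.4%. Across the 10 genes the log2 fold changes had a median of -0.10 for siRNA.1 and 0.01 for siRNA.2, beside -0.00 and 0.00 over all genes.

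**Figure D1:**
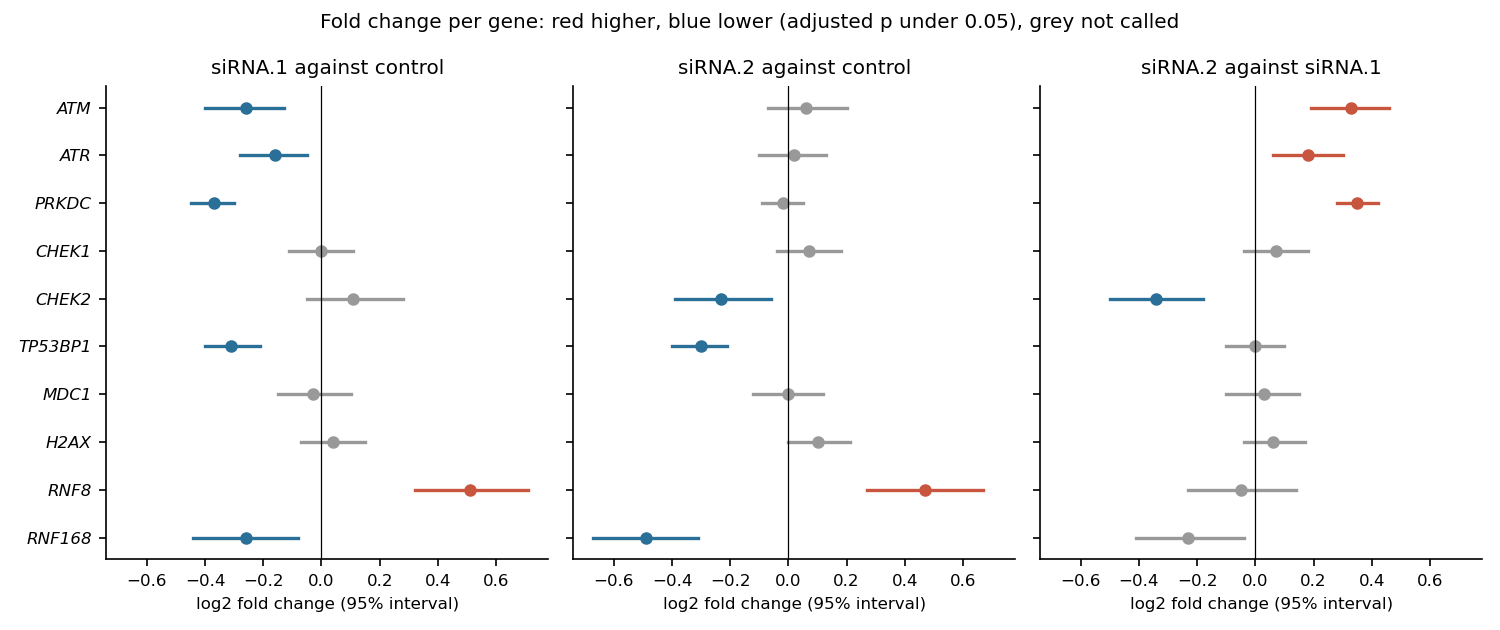
Log2 fold change (horizontal axis) with its 95% interval for each gene in the 3 comparisons, from the edgeR fit of all 9 libraries. Colored points passed an adjusted p of 0.05 (red higher, blue lower), and grey points did not; ATM, ATR and PRKDC are lower with siRNA.1 and near 0 with siRNA.2.

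The 3 apical kinases moved together with siRNA.1 and did not pass the test with siRNA.2. PRKDC, on chromosome 8 (ENSG00000253729), was at 50.3, 45.11 and 46.81 FPKM in control, 33.34, 42.06 and 36.58 with siRNA.1, and 49.04, 44.99 and 47.22 with siRNA.2. Every siRNA.1 library was below every library of the other groups. PRKDC fell with siRNA.1 by 0.37 on the log2 scale (SE 0.04, edgeR adjusted p = 4.38e-22), and the value with siRNA.2 was -0.02 (95% interval -0.09 to 0.05, adjusted p = 0.735). Tested directly, siRNA.2 exceeded siRNA.1 by 0.35 (SE 0.04, edgeR adjusted p = 5.56e-19). Among the 22 alternative analyses the highest adjusted p was 0.0126 for the fall with siRNA.1 and 0.0402 for the difference between the siRNAs. Leaving out 1 library in edgeR gave an adjusted p of up to 9.25e-13 and 1.89e-10.

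ATM (ENSG00000149311, GRCh38 chr11:108223044-108369102, plus strand) was at 1.53, 1.5 and 1.5 FPKM in control, 1.20, 1.45 and 1.21 with siRNA.1, and 1.90, 1.51 and 1.38 with siRNA.2. The siRNA.1 libraries lay below control, the second of them narrowly, and the siRNA.2 libraries spread to both sides of control. The log2 fold change was -0.26 with siRNA.1 (SE 0.07, edgeR adjusted p = 0.000782) and 0.06 with siRNA.2 (95% interval -0.07 to 0.20, adjusted p = 0.528). The siRNAs differed by 0.33 (SE 0.07, edgeR adjusted p = 3.88e-05). Without siRNA.2 replicate 1 that difference was 0.20 (adjusted p = 0.075), and no ATM call held under limma (adjusted p from 0.31 to 0.332).

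ATR (ENSG00000175054, GRCh38 chr3:142449007-142578733, minus strand) showed the smallest of the 3 changes. It was at 3.14, 3.11 and 2.79 FPKM in control, 2.58, 2.95 and 2.70 with siRNA.1, and 3.44, 2.76 and 3.02 with siRNA.2, and all 3 groups overlapped. ATR was lower with siRNA.1 by a log2 fold change of -0.16 (SE 0.06, edgeR adjusted p = 0.0251), and the value with siRNA.2 was 0.02 (95% interval -0.10 to 0.13, adjusted p = 0.892). The call with siRNA.1 was lost under 12 of 22 alternative analyses, among them leaving out control replicate 1 or 2 or siRNA.1 replicate 1 or 3 (edgeR adjusted p up to 0.163), and the difference between the siRNAs (0.18, SE 0.06, edgeR adjusted p = 0.0249) under 10 of 22, among them leaving out siRNA.1 or siRNA.2 replicate 1 or 3 (adjusted p up to 0.389).

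ATM, ATR, PRKDC and TP53BP1 have canonical transcripts of 12915, 8158, 13459 and 10369 bases, and long transcripts as a class were shifted in these libraries. Over 861 genes with a canonical transcript above 8 kb, the median log2 level relative to the control mean was -0.03 to 0.05 in control, -0.14 to -0.03 for siRNA.1 and -0.09 to -0.02 for siRNA.2. Over 4131 genes under 2 kb it was -0.03 to 0.02, 0.03 to 0.09 and 0.06 to 0.09. On the same scale PRKDC was at -0.53, -0.21 and -0.40 in the siRNA.1 libraries and at 0.02, -0.07 and -0.00 in the siRNA.2 libraries, and ATM was at -0.36, -0.09 and -0.35 and at 0.30, -0.00 and -0.13. The long-transcript medians of the siRNA.1 and siRNA.2 libraries overlapped, and the levels of PRKDC did not. Over the 9 libraries PRKDC also rose and fell with these medians (Pearson r = 0.73, and 0.92 for deviations from the group mean). For ATM r was 0.61 and 0.67, for ATR 0.69 and 0.75, and for TP53BP1 0.76 and 0.58. The genes with shorter transcripts also varied with these medians, mostly inversely. For RNF8 r was -0.78 and -0.66, for H2AX -0.66 and -0.68, and for CHEK1 -0.39 and -0.48. For CHEK2 it was -0.20 and -0.60, for MDC1 -0.19 and -0.42, and for RNF168 0.58 and 0.37. The part of the shift of long transcripts in the levels of the kinases was not tested. When scaling factors were set within bins of canonical transcript length, an alternative chosen after seeing the data, PRKDC, ATM and TP53BP1 kept their calls with siRNA.1, and ATR, at -0.09, did not (adjusted p = 0.241). The genes tested were split into 10 bins, so the bin of the longest transcripts pooled a range of lengths. Such scaling cannot remove a shift that grows with length within a bin.

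**Figure D2:**
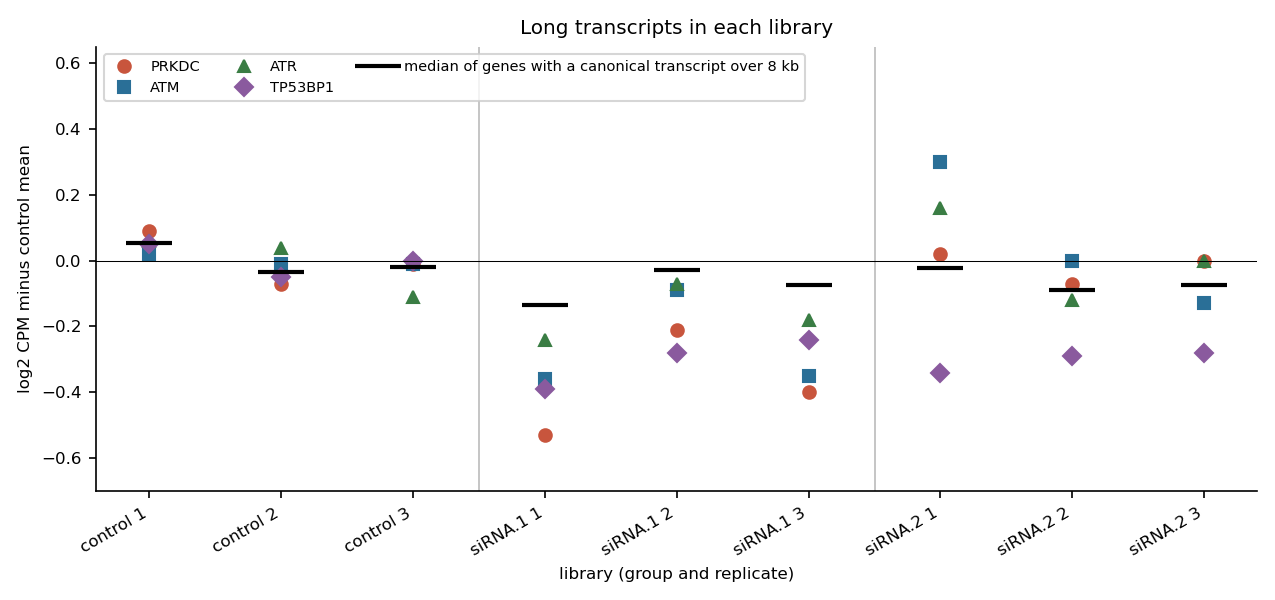
Log2 CPM (counts scaled to library size) minus the control mean (vertical axis) of PRKDC, ATM, ATR and TP53BP1 in each of the 9 libraries, with the median of 861 genes whose canonical transcript exceeds 8 kb as a black bar. The kinases lie below 0 in the siRNA.1 libraries and around 0 in the siRNA.2 libraries, while TP53BP1 lies below 0 in both.

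Over the 9 libraries and 7257 genes averaging 5 FPKM or more, the genes whose log2 level was most like that of PRKDC were ANKFY1 (Pearson r = 0.978), MFHAS1 (0.977), ZNF106 (0.968), MYO10 (0.965) and SMARCAD1 (0.961), given as a description since they were chosen for it. ANKFY1 was at 10.2 ± 0.21 FPKM in control, 7.38 ± 0.792 with siRNA.1 and 9.92 ± 0.427 with siRNA.2 (SD, n = 3). SMARCAD1, a chromatin remodeler that acts in end resection, was at 10.8 ± 0.124, 9.12 ± 1.06 and 10.8 ± 0.215 FPKM. Their canonical transcripts ran from 5094 bases for SMARCAD1 to 11442 bases for MYO10.

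The 2 transducer kinases behaved differently from the apical ones and from each other. CHEK1 (ENSG00000149554, GRCh38 chr11:125625163-125676255, plus strand) was at 17.07, 16.89 and 18.19 FPKM in control, 17.99, 17.79 and 17.3 with siRNA.1, and 18.03, 18.68 and 18.41 with siRNA.2. The siRNA.2 libraries overlapped control. CHEK1 had a log2 fold change of -0.00 (95% interval -0.11 to 0.11, edgeR adjusted p = 0.99) with siRNA.1 and 0.07 (-0.04 to 0.18, adjusted p = 0.403) with siRNA.2. The intervals reached no further than 0.18 from 0.

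CHEK2 (ENSG00000183765, GRCh38 chr22:28687743-28742422, minus strand) was at 7.68, 7.45 and 7.88 FPKM in control, 9.16, 7.86 and 8.32 with siRNA.1, and 6.68, 6.83 and 6.31 with siRNA.2. The siRNA.2 libraries were below all others, and the siRNA.1 libraries overlapped control. CHEK2 fell with siRNA.2 by 0.23 on the log2 scale (SE 0.08, edgeR adjusted p = 0.0245), and the value with siRNA.1 was 0.11 (95% interval -0.05 to 0.28, adjusted p = 0.343). The siRNAs differed by -0.34 (siRNA.2 minus siRNA.1, SE 0.08, edgeR adjusted p = 0.00082), a call that held under all 22 alternatives, whereas the fall against control was lost on leaving out control replicate 1 or 3 or siRNA.2 replicate 1 or 3, with an adjusted p up to 0.113. CHEK2 overlaps HSCB on the opposite strand over 384 bases and has pseudogene copies; how shared reads were counted is not given in the sources used here, so its counts are uncertain to that extent.

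In the direct test of siRNA.2 against siRNA.1, 4 of the 10 genes passed, against 12.2% of all genes and 21.4% of those averaging 100 counts or more: ATM, ATR and PRKDC were higher with siRNA.2 (6.1% of all genes were) and CHEK2 was lower (6.06%). The other 6 genes did not pass.

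Of the chromatin proteins, H2AX and MDC1 did not pass the test with either siRNA. H2AX (ENSG00000188486, GRCh38 chr11:119093854-119095467, minus strand, a gene of 1 exon) was at 66.93, 66.66 and 67.78 FPKM in control, 72.41, 68.51 and 69.94 with siRNA.1, and 67.94, 75.91 and 73.85 with siRNA.2. Every siRNA library lay above every control library in FPKM, as was so for 20.7% of all genes in the first comparison and 21.1% in the second (37.7% and 39.6% did not overlap in either direction). In log2 CPM minus the control mean the groups overlapped. On that scale siRNA.1 replicate 2 was at -0.01 and siRNA.2 replicate 1 at -0.02, beside -0.00, -0.01 and 0.02 in control. The log2 fold changes were 0.04 (95% interval -0.07 to 0.15, edgeR adjusted p = 0.656) and 0.10 (-0.00 to 0.21, adjusted p = 0.151). Without siRNA.2 replicate 1, the lowest of its group, H2AX passed with siRNA.2 at 0.16 (edgeR adjusted p = 0.0268). H2AX transcripts occur both with and without a poly(A) tail, and the poly(A)+ selection retained the tailed form.

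MDC1 (ENSG00000137337, GRCh38 chr6:30699807-30717447, minus strand), the adaptor that reads γH2AX, was at 8.33, 9.51 and 8.91 FPKM in control, 8.87, 8.82 and 9.06 with siRNA.1, and 9.4, 8.71 and 8.87 with siRNA.2. The groups overlapped. The log2 fold changes were -0.03 (95% interval -0.15 to 0.10, edgeR adjusted p = 0.816) and 0.00 (-0.12 to 0.12, adjusted p = 1).

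The 2 ubiquitin ligases that act in sequence changed in opposite directions. RNF8 (ENSG00000112130, GRCh38 chr6:37353979-37394734, plus strand), which starts ubiquitination at the break, was at 2.73, 2.91 and 2.65 FPKM in control, 4.25, 3.69 and 4.11 with siRNA.1, and 3.91, 3.93 and 3.72 with siRNA.2. All 6 siRNA libraries exceeded all 3 controls, and the siRNAs overlapped each other. RNF8 rose 1.43-fold with siRNA.1 (log2 fold change 0.51, SE 0.10, edgeR adjusted p = 3.50e-06) and 1.38-fold with siRNA.2 (0.47, SE 0.10, adjusted p = 2.15e-05), the only rise among the 10 genes.

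RNF168 (ENSG00000163961, GRCh38 chr3:196468783-196503768, minus strand), which extends the ubiquitin mark that 53BP1 reads, was at 6.11, 6.12 and 5.73 FPKM in control, 4.93, 5.15 and 5.18 with siRNA.1, and 4.52, 3.74 and 4.63 with siRNA.2. The 3 groups did not overlap, with siRNA.2 lowest. RNF168 fell by 0.26 on the log2 scale with siRNA.1 (SE 0.09, edgeR adjusted p = 0.0175) and by 0.49 with siRNA.2 (SE 0.09, adjusted p = 1.00e-06), and the difference between the siRNAs did not pass (-0.23, 95% interval -0.41 to -0.04, adjusted p = 0.0974). The call with siRNA.1 was lost without control replicate 1 or 2 or siRNA.1 replicate 1 (edgeR adjusted p up to 0.0613) and under limma (adjusted p up to 0.0762), while that with siRNA.2 held under all 22 alternatives. RNF168 lies 308 kb from LINC00885 on chromosome 3.

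TP53BP1 (ENSG00000067369, GRCh38 chr15:43403061-43510728, minus strand), whose protein 53BP1 binds ubiquitinated and methylated histones and directs breaks toward end joining, was at 13.72, 12.85 and 13.29 FPKM in control, 10.27, 11.21 and 11.4 with siRNA.1, and 10.77, 10.84 and 10.92 with siRNA.2. No siRNA library reached the lowest control. TP53BP1 fell by 0.31 with siRNA.1 (SE 0.05, edgeR adjusted p = 1.53e-08) and by 0.30 with siRNA.2 (SE 0.05, adjusted p = 1.21e-08) on the log2 scale, and the siRNAs differed by 0.00 (95% interval -0.10 to 0.10). It overlaps TUBGCP4 on the opposite strand over 6711 bases. TUBGCP4 was at 2.9 ± 0.147, 2.99 ± 0.15 and 3.28 ± 0.0954 FPKM and did not pass the test with either siRNA.

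Several of these genes share a start region with a divergent partner. Within 1000 bases of the start, 5 of the 10 had a tested gene on the other strand (ATM with NPAT, PRKDC with MCM4, CHEK2 with HSCB, TP53BP1 with MAP1A, MDC1 with TUBB), against 22% of all genes tested. That share covers genes of all levels, and none was counted for genes at levels like these. MAP1A, at 0.1022 FPKM, was barely above the 0.1 FPKM needed for testing. MCM4, a subunit of the replicative helicase that starts 7 bases from PRKDC, was at 56.3 ± 1.18 FPKM in control, 50.5 ± 0.906 with siRNA.1 and 58 ± 1.49 with siRNA.2. Like PRKDC it was lower with siRNA.1 (log2 fold change -0.18, SE 0.04, edgeR adjusted p = 5.66e-05) and not with siRNA.2 (0.03, adjusted p = 0.632). NPAT, a regulator of histone gene transcription 406 bases from ATM, fell by 0.26 with siRNA.1 (SE 0.07, edgeR adjusted p = 0.000908) and was at -0.15 with siRNA.2 (adjusted p = 0.0616). TUBB, the partner of MDC1, fell by 0.20 with siRNA.1 (SE 0.04, edgeR adjusted p = 5.08e-07), with MDC1 at -0.03. The other 2 partners did not pass where their neighbor fell: HSCB was at -0.02 with siRNA.2 (edgeR adjusted p = 0.959), and MAP1A at -0.12 and -0.11 (adjusted p = 0.892 and 0.898). HSCB was at 0.28 with siRNA.1 (edgeR adjusted p = 0.176). Between the siRNAs, where CHEK2 was at -0.34, HSCB was at -0.29 with libraries that did not overlap, and it did not pass (edgeR adjusted p = 0.228). Libraries of the 2 siRNAs did not overlap for 24.4% of all genes.

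The promoters of the genes were searched because several moved together. The sequences came from RefSeq (GRCh38.p14, 250 bases before to 50 after each start), and 9 of the 10 genes had an entry, PRKDC having none. Of 8 motifs searched on both strands, the ETS family core CCGGAAG occurred in ATM, ATR, TP53BP1 and RNF168, the 4 genes with an entry that were lower with siRNA.1, and in none of the other 5. The search followed these calls, so the split is a description, and the call of ATR was lost under 12 of 22 alternatives. With siRNA.2 the split did not hold: ATM and ATR were not called, and CHEK2, which lacks the motif, was lower. It was present in 10.3% of 35116 promoters and, since a gene can have several entries, in 20.9% of the 11880 tested genes that had one. A window of each gene is shown with the motif in capitals, on the strand on which it reads CCGGAAG; ATR held the motif at 2 places, of which the one nearer the start is printed.

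ATM (chr11:108223042-108223071, plus strand): cagggtttgaaCCGGAAGcgggagtaggta
ATR (chr3:142578761-142578790, plus strand, opposite to the gene): agctaccgctgCCGGAAGagcgcggcgccc
TP53BP1 (chr15:43510668-43510697, minus strand): ttgcctcggcgCCGGAAGaagcttctagtt
RNF168 (chr3:196503838-196503867, minus strand): gcgcgcagaccCCGGAAGtcccgccccggg

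Of 2477 tested genes with the motif, 20.4% were higher and 20.6% lower with siRNA.1, and of 9403 genes without it, 19.7% and 20.9% were. With siRNA.2, 23.8% of the genes with the motif were higher and 18.3% lower, beside 20.4% and 21.3% of those without. Between the siRNAs, 10% of the genes with the motif were higher with siRNA.2 and 5.69% lower, beside 8.11% and 8.87% of those without. The differences between these shares were not tested, and a match is a description of letters, not a site. RNF8, the gene that rose, held a CCAAT box, as did ATM, CHEK1, CHEK2, TP53BP1, MDC1 and H2AX.

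The CCAAT box was present in 34.6% of promoters and 42.3% of genes with an entry, and GGGCGG, in 7 of the 9 genes, in 45% and 74.3%. TTTGAA occurred in 3 of the 9, against 15.2% and 13.6%. An E2F element (TTTCCCGC, TTTGGCGC, TTTCGCGC or TTTGCCGC, 3.31% of promoters), an interferon element (3.57%), TGACGTCA (1.85%) and the NRF1 motif (1.24%) occurred in none of the 9.

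The wider pathway was read from lists of genes by role, each tested in the same fit. For scale, 15% of all genes were higher and 15.2% lower with siRNA.1, and 15.8% and 15.1% with siRNA.2. Of genes averaging 100 counts or more, 49.2% and 50.3% were called in either direction. Of 17 sensors and activators of the kinases, 3 were higher and 6 lower with siRNA.1, and 1 higher and 4 lower with siRNA.2, with medians of -0.07 and -0.01. HUS1, part of the clamp that activates ATR, fell from 7.28 FPKM in control to 5.02 and 5.42 (log2 fold change -0.56 and -0.44, edgeR adjusted p = 8.01e-08 and 2.65e-05). XRCC5, which encodes the Ku80 partner of DNA-PKcs, fell by 0.35 with siRNA.1 and by 0.17 with siRNA.2, and MRE11, a nuclease of the complex that activates ATM, by 0.15 and 0.24. Of 8 related kinases and their maturation factors, 3 were higher and 2 lower with siRNA.1, and 2 higher and 1 lower with siRNA.2. RUVBL1 and RUVBL2, ATPases that help assemble kinases of this family, rose by 0.30 and 0.27 with siRNA.1 and by 0.41 and 0.38 with siRNA.2. TRRAP, a pseudokinase of the same family, fell by 0.17 and 0.12.

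Of 18 checkpoint adaptors and effectors, 4 were higher and 7 lower with siRNA.1, and 3 higher and 6 lower with siRNA.2. CDC25A, the phosphatase that CHK1 and CHK2 mark for destruction, rose from 16.8 to 28 and 24.7 FPKM (log2 fold change 0.71 and 0.54, edgeR adjusted p = 1.52e-32 and 1.42e-19). CDC25C, which opens mitosis, fell by 0.48 and 0.51. TIMELESS and TIPIN form 1 fork protection complex, yet TIMELESS fell by 0.42 and 0.45 while TIPIN rose by 0.36 and 0.57. CDKN1A, which encodes the cyclin-dependent kinase inhibitor p21, fell by 0.26 and 0.27, and MDM4 rose by 0.37 and 0.22.

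Of 21 genes of the ubiquitin and methyl-histone response at breaks, 1 was higher and 4 lower with siRNA.1, and 6 higher and 4 lower with siRNA.2. BRCC3, a deubiquitinase of the BRCA1-A complex, fell by 0.31 and 0.28, and BARD1, the partner of BRCA1, by 0.26 and 0.23. L3MBTL2, which links MDC1 to RNF168, rose by 0.20 and 0.33. Of 15 genes for 53BP1 effectors and end joining, 5 were higher and 1 lower with siRNA.1, and 5 higher and 0 lower with siRNA.2. SHLD2, a shieldin subunit that works downstream of 53BP1, rose from 9.69 to 14.3 and 14.1 FPKM (log2 fold change 0.53 and 0.53, edgeR adjusted p = 1.68e-12 and 5.93e-13). POLL, an end joining polymerase, rose by 0.35 and 0.42, and DCLRE1C, the Artemis nuclease, by 0.19 and 0.43. TP53BP1 itself fell in the same comparisons. Of 9 phosphatases that reverse the signal, 0 were higher and 2 lower with siRNA.1, and 3 higher and 1 lower with siRNA.2, PPP4R2 being lower with both (-0.17 and -0.16).

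Many of these genes vary with the cell cycle, so 2 further lists were counted. Of 24 S phase replication genes, 7 were higher and 7 lower with siRNA.1, and 13 higher and 2 lower with siRNA.2, with medians of 0.06 and 0.19. Of 17 G2/M genes, 1 was higher and 9 lower with siRNA.1, and 2 higher and 4 lower with siRNA.2, with medians of -0.17 and -0.05. Between the siRNAs, 11 S phase and 8 G2/M genes were higher with siRNA.2, 0 were lower and 13 and 9 were not called, the comparison in which ATM, ATR and PRKDC were also higher. Of all genes tested, 6.1% were higher and 6.06% lower in that comparison, and 21.4% of those averaging 100 counts or more were called. RRM2, a ribonucleotide reductase subunit, rose by 0.24 and 0.48, MCM3 by 0.30 and 0.32 and MCM5 by 0.24 and 0.34, while GINS4 fell by 0.44 and 0.42 and TYMS by 0.21 and 0.21. CENPE, a mitotic kinesin, fell by 0.40 and 0.22, KIF20A by 0.35 and 0.22 and CENPA by 0.22 and 0.29, while AURKB rose by 0.15 and 0.40. The part of the cell cycle genes in the levels of the 10 genes was not tested.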

How the data were processed

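Total RNA of TE13 cells was made into poly(A)+ libraries and sequenced on an Illumina NovaSeq. The authors used STAR for alignment to GRCh38 and featureCounts for the gene-level counts; versions, annotation release and strand setting are not given in the sources used here. The deposited table holds raw counts and FPKM, the latter computed by the authors from the summed exon length. Members and gene lists were chosen with earlier results of these data known. Counts of genes averaging 0.1 FPKM or more (21395 of 60605) were tested with edgeR 4.0.16 (R 4.3.3) by the quasi-likelihood F test with TMM scaling in 1 fit of the 3 conditions, adjusted by Benjamini-Hochberg and called at 0.05. The SE was the absolute log2 fold change over the root of F. The scripts were tested on simulated data. Alternatives were DESeq2 1.42.0, limma 3.58.1 on log2(FPKM + 0.1), other scalings and filters, a replicate block, and leaving out each library. Named genes were all members, LINC00885, overlapping genes, the 5 genes most like PRKDC, and per list and direction up to 3 genes called alike with both siRNAs and at 1 FPKM or more, by the largest mean change. Divergent partners and the promoter motifs were added after the values were seen. Markers were fixed lists. The edgeR p-values and SEs rest on the spread between replicates, pooled over the 3 conditions and drawn toward that of other genes. They do not measure the spread of a gene within a single group.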

Additional observations from a re-analysis of the deposited data

Results flagged for a closer look

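For 4 of the 10 genes the effect of the 2 siRNAs differed when siRNA.2 was tested directly against siRNA.1 (edgeR, Benjamini-Hochberg adjustment), as did 12.2% of all genes and 21.4% of those averaging 100 counts or more. PRKDC was higher with siRNA.2 by 0.35 on the log2 scale (adjusted p = 5.56e-19, higher in 3 of 3 libraries), ATM by 0.33 (adjusted p = 3.88e-05) and ATR by 0.18 (adjusted p = 0.0249), the libraries of ATM and ATR overlapping. CHEK2 was lower with siRNA.2, with a log2 fold change of -0.34 (adjusted p = 0.00082), and its libraries did not overlap. In FPKM, the libraries of the 2 siRNAs did not overlap for 24.4% of all genes (11.3% higher with siRNA.2, 13.1% lower).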

How the results depend on the processing

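No call reversed under any of the 22 alternatives. Of 660 alternative values of the 10 genes, 574 kept their side of the threshold and direction, 39 lost significance, 1 gained it and 46, of results not called, changed sign. PRKDC, TP53BP1 and RNF8 kept every call, as did RNF168 with siRNA.2. Genes called lower with siRNA.1 numbered 5, and 2 with limma on log2(FPKM + 0.1), log2(FPKM + 1) or log2(FPKM + 0.01). Genes higher with siRNA.2 than with siRNA.1 numbered 3, and 1 with each limma fit. Leaving out 1 library gave 3 to 5 genes lower with siRNA.1 (3 without control replicate 1, control replicate 2 or siRNA.1 replicate 1), 1 to 2 higher and 2 to 3 lower with siRNA.2, and 1 to 3 higher with siRNA.2 than siRNA.1 (1 without siRNA.2 replicate 1, where H2AX passed against control, adjusted p = 0.0268). Over all genes, calls between the siRNAs numbered 2603, and 1437, 1414 and 1449 with the limma fits; the cause was not tested. Correlations of same-numbered libraries ran from -0.193 to 0.107 and those of other pairs from -0.077 to 0.184. They gave no sign that numbers pair samples. With deviations taken from means of 3 libraries, they cannot exclude it. With the replicate block 6215, 6359 and 2342 genes were called against 6472, 6614 and 2603. LINC00885 passed with siRNA.2 under DESeq2 (adjusted p = 0.0472), the 1 alternative that changed its call. Its counts limit any statement on knockdown.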
